A study of Mus musculus with 24 samples.

Results

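The Cyp4 enzymes are cytochrome P450 fatty acid hydroxylases, and 10 mouse genes of the family make up this account, listed by gene name: Cyp4a10, Cyp4a12a, Cyp4a12b, Cyp4a14, Cyp4a31, Cyp4a32, Cyp4f13, Cyp4f14, Cyp4f15 and Cyp4v3. Of these, 7 had a probe set annotated to them alone, with 1 such probe set each, among the 18820 genes measured. Those 7 were Cyp4a12a, Cyp4a12b, Cyp4a14, Cyp4a31, Cyp4f13, Cyp4f14 and Cyp4f15. Cyp4a10, Cyp4a32 and Cyp4v3 were listed only on probe sets shared with other genes and are described separately. Liver RNA came from 4 groups of 6 male C57BL/6 mice, aged 9 to 12 weeks and fed chow. The groups were FXR-/- mice given obeticholic acid (FXRKO OCA), FXR-/- mice given vehicle (FXRKO vehicle), wild-type mice given obeticholic acid (WT OCA) and wild-type mice given vehicle (WT vehicle). Obeticholic acid (OCA, INT-747) is a semi-synthetic bile acid that activates the nuclear receptor FXR, and was gavaged at 10 mg/kg/day for 7 days in 1% methyl cellulose, the vehicle of the other groups. The labels give each array its own mouse, name no tissue-restricted driver for the FXR-/- allele and do not say whether the wild-type mice were littermates.

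Cyp4 enzymes add a hydroxyl group to the last carbon of fatty acids and eicosanoids, the omega position, using electrons passed on from NADPH. Alcohol and aldehyde dehydrogenases then turn the product into a dicarboxylic acid, which peroxisomes shorten. In mouse liver Cyp4a10 and Cyp4a14 are classical targets of PPAR-alpha, the receptor that switches on fatty acid oxidation in fasting, whereas Cyp4a12 is expressed mainly in males and hydroxylates arachidonic acid. Enzymes of the Cyp4f group are known from mice and humans to act on leukotriene B4, long fatty acids and vitamin E. FXR, encoded by Nr1h4, is the bile acid receptor of liver and gut, and Nr0b2, which encodes SHP, is its classical target.

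RefSeq promoter entries (mouse build GRCm38.p6) were present for 5 of the 10 genes. The 3 Cyp4f genes lie next to each other on chromosome 17 and all had lower means in FXRKO than in WT livers, though Cyp4f15 did not pass the test, so the 250 bases before their start sites are shown together, 5′ to 3′ on the strand of the gene. Capitals mark GGATTGG, the opposite-strand form of CCAATCC, which contains the CCAAT box. The entry for Cyp4f13 is chr17:32947362-32947611 on the minus strand, that for Cyp4f14 is chr17:32917357-32917606 on the minus strand, and that for Cyp4f15 is chr17:32685409-32685658 on the plus strand. Cyp4f14 has 4 entries, of which the one starting farthest upstream was taken.
Cyp4f13: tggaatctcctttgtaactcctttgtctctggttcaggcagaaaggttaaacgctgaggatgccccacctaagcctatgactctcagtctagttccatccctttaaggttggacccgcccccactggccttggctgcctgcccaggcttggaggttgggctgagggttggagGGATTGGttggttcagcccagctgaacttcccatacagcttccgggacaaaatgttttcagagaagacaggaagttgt
Cyp4f14: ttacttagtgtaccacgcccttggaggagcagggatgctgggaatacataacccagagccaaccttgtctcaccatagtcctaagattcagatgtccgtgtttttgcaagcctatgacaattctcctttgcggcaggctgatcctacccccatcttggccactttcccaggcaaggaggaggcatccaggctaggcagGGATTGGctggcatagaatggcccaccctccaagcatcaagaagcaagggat
Cyp4f15: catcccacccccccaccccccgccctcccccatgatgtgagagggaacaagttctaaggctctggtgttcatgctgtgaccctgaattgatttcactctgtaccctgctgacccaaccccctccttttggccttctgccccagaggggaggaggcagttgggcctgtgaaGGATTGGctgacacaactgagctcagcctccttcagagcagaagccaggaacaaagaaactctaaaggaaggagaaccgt
The marked bases begin 78 bases before the start in Cyp4f13, 52 bases before it in Cyp4f14 and 80 bases before it in Cyp4f15. CCAATCC was picked after the 3 sequences had been read. It was present on either strand in the same window of 4.21% of 27025 genes, and in 4 of the 8 Cyp4f genes of the table. The shorter CCAAT, which overlaps it, was present in 34.5% of genes. Neither the direct repeat of AGGTCA with 1 base between its copies, known to bind PPAR with RXR (0.037% of genes), nor the inverted repeat of AGGTCA with 1 base between its copies, known to bind FXR with RXR (0.0074% of genes), had a match in the 3 windows. The core element AGGTCA (13.8% of genes) had none there either. TTCNNNGAA, the STAT element (7.14% of genes), had 1 match, 22 bases before the Cyp4f13 start. These matches are descriptions of letters in a window and were not set against the expression data.

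The values are microarray signals on a log2 scale, so that a difference of 1 is a doubling. They can be compared between samples for 1 probe set but not between genes. Array medians lay between 4.57 and 4.65, and any pair of arrays correlated at 0.9709 to 0.9911 over all probe sets. The SHP gene Nr0b2 averaged 4.17 ± 0.50 in FXRKO OCA, 3.97 ± 0.48 in FXRKO vehicle, 8.00 ± 0.43 in WT OCA and 6.59 ± 0.51 in WT vehicle livers (SD, n = 6 each). Nr1h4 itself averaged 9.97 ± 0.11 in FXRKO vehicle and 10.14 ± 0.12 in WT vehicle livers, and whether its probe set lies in the deleted part of the gene was not tested. The array names carry a number, 5, 7 or 9, of unstated meaning. All FXRKO OCA arrays carried 9, FXRKO vehicle arrays carried 9 (2 arrays) or 7 (4 arrays), all WT OCA arrays carried 5, and WT vehicle arrays carried 5 (2 arrays) or 7 (4 arrays). The WT vehicle array of replicate 6 stood apart, with 532 genes that departed over 2-fold from the rest of its group, against 2 to 90 genes for each of the other arrays.

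Under vehicle, the knockout livers had less Cyp4a12a, Cyp4a12b, Cyp4f13 and Cyp4f14 RNA than wild-type livers. Cyp4a31 was higher on the probe set annotated to it alone, and not called on those it shares. Cyp4a12b was 3.74-fold lower, Cyp4a12a 2.19-fold lower, Cyp4f13 1.41-fold lower and Cyp4f14 1.38-fold lower, while Cyp4a31 was 1.78-fold higher. These 5 of the 7 measured genes passed the test, 1 higher and 4 lower, against 27.5% of all genes, 15.4% higher and 12.1% lower. The test was limma's moderated test over all 4 groups with Benjamini-Hochberg adjustment over all genes, and a gene was called at an adjusted p below 0.05. The median log2 change of the 7 genes was -0.46, against -0.03 over all genes. For 5 genes the values of the FXRKO and WT vehicle arrays did not overlap, 1 of them higher and 4 lower, against 15.1% of all genes, 9.4% higher and 5.67% lower.

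Cyp4a12a and Cyp4a12b are neighbouring close copies on chromosome 4, and Cyp4a12a encodes the main mouse enzyme that hydroxylates arachidonic acid at its last carbon. Their probe sets may share signal, so how far each moved on its own is uncertain. Cyp4a12b was 7.49, 9.58 and 9.80 (lowest, median and highest) in FXRKO OCA, 9.29, 9.71 and 10.54 in FXRKO vehicle, 11.16, 11.54 and 11.79 in WT OCA, and 11.37, 11.71 and 12.13 in WT vehicle livers. Every FXRKO array was below every WT array, under either treatment. The log2 change under vehicle was -1.90 ± 0.31 (SE; limma, Benjamini-Hochberg adjusted p = 2.75e-05). Cyp4a12a was lower in FXRKO too, at 7.93, 10.10 and 10.26 in FXRKO OCA, 9.86, 10.29 and 10.98 in FXRKO vehicle, 10.97, 11.26 and 11.58 in WT OCA, and 11.10, 11.52 and 12.00 in WT vehicle livers. The highest FXRKO vehicle value of Cyp4a12a lay below the lowest WT vehicle value, so the vehicle groups did not overlap, and neither did the OCA groups. Its log2 change under vehicle was -1.13 ± 0.31 (SE; limma, Benjamini-Hochberg adjusted p = 0.00642).

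**Figure D1:**
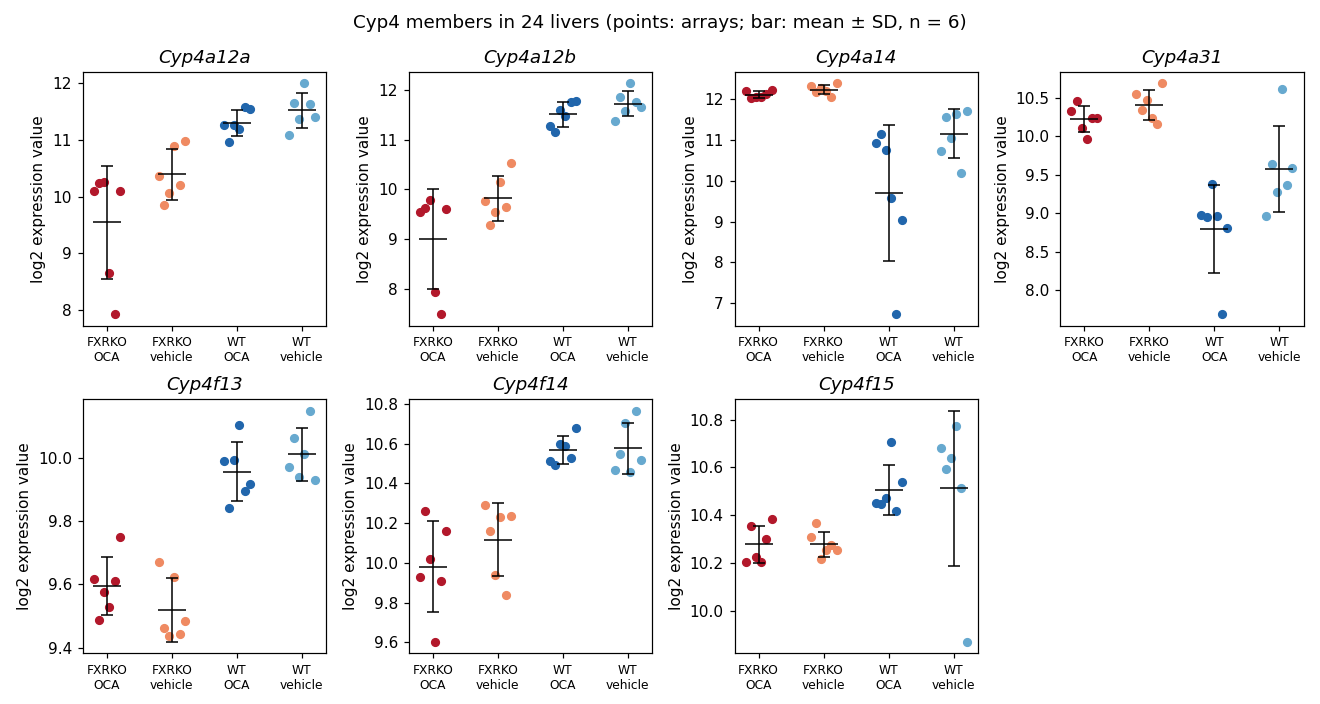
Log2 expression value of each Cyp4 gene with a probe set of its own (vertical axis, a separate scale per panel) in the 4 groups of 6 livers; points are arrays and bars are mean ± SD. Cyp4a12a and Cyp4a12b are lower in both FXRKO groups, Cyp4a14 is tightly grouped near 12.23 in FXRKO vehicle livers and spread from 6.73 to 11.15 in WT OCA livers, and 1 WT vehicle array lies apart at 9.87 for Cyp4f15.

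Cyp4a14, a fatty acid hydroxylase induced by PPAR-alpha ligands, and Cyp4a31 had higher values in the knockout. Cyp4a14 was 12.02, 12.08 and 12.21 (lowest, median and highest) in FXRKO OCA, 12.04, 12.23 and 12.38 in FXRKO vehicle, 6.73, 10.15 and 11.15 in WT OCA, and 10.19, 11.30 and 11.71 in WT vehicle livers. The 12 FXRKO arrays all lay above the 12 WT arrays. The SD was 0.08 in FXRKO OCA and 0.12 in FXRKO vehicle livers, against 1.67 in WT OCA and 0.60 in WT vehicle livers. The highest value of any probe set in the table was 13.6, and whether the FXRKO values lie near the top of what this probe set can show was not tested. The log2 change of Cyp4a14 under vehicle, 1.08 ± 0.47 (SE), did not pass the test (limma, Benjamini-Hochberg adjusted p = 0.0885), although the groups do not overlap (exact permutation test, two-sided, unadjusted p = 0.00216, the smallest that 6 against 6 arrays can give). With a spread estimated from the FXRKO vehicle and WT vehicle arrays alone, which leaves out the widely spread WT OCA arrays, the limma adjusted p was 0.00193 after Benjamini-Hochberg adjustment. Within the arrays numbered 7, Cyp4a14 was 12.04 to 12.38 in FXRKO vehicle and 10.74 to 11.64 in WT vehicle livers (n = 4 each), and passed the test there (limma, Benjamini-Hochberg adjusted p = 0.00321). Cyp4a14 also passed with array weights (limma, Benjamini-Hochberg adjusted p = 0.0451) and with the letter in the array names as a block (0.0338). In all the other alternative fits it did not pass. Among these, the limma adjusted p was 0.271 with the array number as a block and 0.127 with another variance model.

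Cyp4a31 is a close copy of Cyp4a10 and Cyp4a32, and its probe set may pick up their RNA. It was 9.97, 10.24 and 10.45 (lowest, median and highest) in FXRKO OCA, 10.17, 10.40 and 10.69 in FXRKO vehicle, 7.69, 8.96 and 9.39 in WT OCA, and 8.97, 9.48 and 10.61 in WT vehicle livers. A single WT vehicle array, replicate 4 at 10.61, lay within the FXRKO vehicle range. The log2 change under vehicle was 0.83 ± 0.22 (SE; limma, Benjamini-Hochberg adjusted p = 0.00607). Within the arrays numbered 7 the change was 0.77 and did not pass the test (limma, Benjamini-Hochberg adjusted p = 0.0894).

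The Cyp4f genes showed smaller and tighter differences. Cyp4f13 was 9.49, 9.59 and 9.75 (lowest, median and highest) in FXRKO OCA, 9.44, 9.47 and 9.67 in FXRKO vehicle, 9.84, 9.96 and 10.10 in WT OCA, and 9.93, 9.99 and 10.15 in WT vehicle livers. All FXRKO arrays were below all WT arrays. Its log2 change under vehicle was -0.49 ± 0.06 (SE; limma, Benjamini-Hochberg adjusted p = 6.17e-07). Cyp4f14, which in mice is the enzyme that hydroxylates vitamin E at its side chain, was 9.60, 9.97 and 10.26 in FXRKO OCA, 9.84, 10.20 and 10.29 in FXRKO vehicle, 10.49, 10.56 and 10.68 in WT OCA, and 10.46, 10.54 and 10.77 in WT vehicle livers. Again no FXRKO array reached a WT array, and the log2 change under vehicle was -0.46 ± 0.09 (SE; limma, Benjamini-Hochberg adjusted p = 0.000436).

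Cyp4f15, the next Cyp4f gene of the chromosome 17 cluster, did not pass the test under vehicle, and 1 array set that outcome. It was 10.20, 10.26 and 10.38 (lowest, median and highest) in FXRKO OCA, 10.22, 10.27 and 10.37 in FXRKO vehicle, 10.42, 10.46 and 10.70 in WT OCA, and 9.87, 10.62 and 10.77 in WT vehicle livers. The lowest WT vehicle value was that of replicate 6, the array that stands apart, and the other WT vehicle arrays were at 10.51 or above, over the whole FXRKO range. The log2 change was -0.23 ± 0.10 (SE; limma, Benjamini-Hochberg adjusted p = 0.0863) with that array and -0.36 (limma, Benjamini-Hochberg adjusted p = 3.95e-05) without it. Within the arrays numbered 7, which leave it out, the change was -0.42 (limma, Benjamini-Hochberg adjusted p = 0.00102).

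With the array number as a block, 4 of the 7 genes were called under vehicle, all lower, against 4281 of all 18820 genes. They were Cyp4a12b, Cyp4f13, Cyp4f14 and Cyp4f15. In that fit Cyp4a12a had a log2 change of -0.99 and lost its call (limma, Benjamini-Hochberg adjusted p = 0.0664), as did Cyp4a31 with 0.77 (adjusted p = 0.0559).

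**Figure D2:**
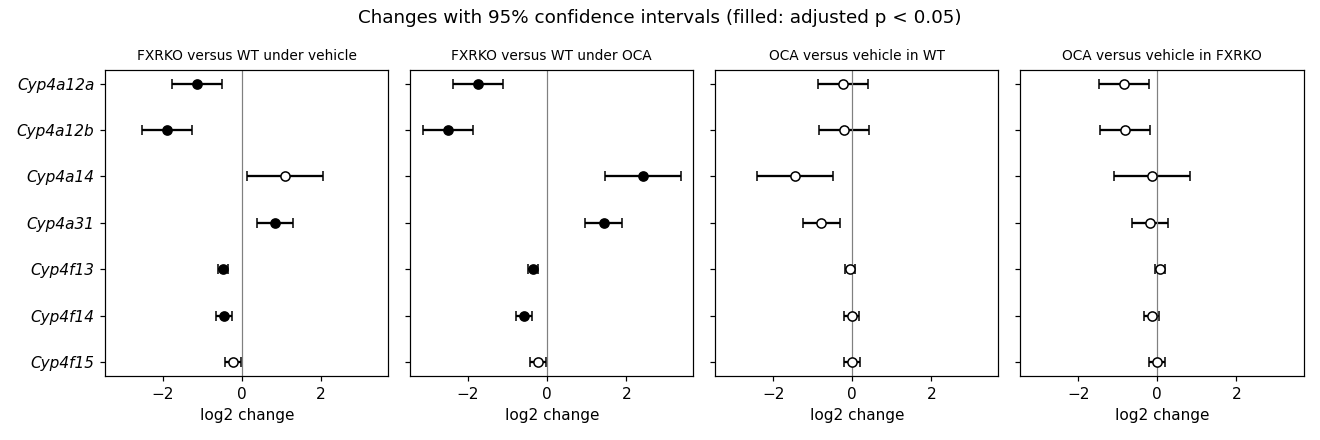
Log2 change of each Cyp4 gene (horizontal axis) with its 95% confidence interval from limma, for FXRKO versus WT under vehicle, FXRKO versus WT under OCA, OCA versus vehicle in WT and OCA versus vehicle in FXRKO; filled points have an adjusted p below 0.05. Called changes appear in the 2 genotype comparisons, 5 under vehicle and 6 under OCA, and in neither treatment comparison.

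Under OCA, which asks whether the genotypes also differ when the FXR agonist is present, 6 of the 7 genes passed the test, 2 higher and 4 lower in FXRKO, against 30.7% of all genes, 17.4% higher and 13.3% lower. The median log2 change of the 7 genes was -0.36, against -0.02 over all genes. Cyp4a12b was 5.69-fold lower (-2.51 ± 0.31 SE on the log2 scale; Benjamini-Hochberg adjusted p from limma = 4.57e-07) and Cyp4a12a 3.37-fold lower (-1.75 ± 0.31 SE; adjusted p = 6.8e-05). Cyp4a14 was 5.32-fold higher (2.41 ± 0.47 SE on the log2 scale; Benjamini-Hochberg adjusted p from limma = 0.000226) and Cyp4a31 2.68-fold higher (1.42 ± 0.22 SE; adjusted p = 1.8e-05). Leaving out each array in turn, the log2 change lay between 1.82 and 2.70 for Cyp4a14 and between 1.20 and 1.54 for Cyp4a31. The lowest WT OCA array for both genes was replicate 5, at 6.73 for Cyp4a14. Of the Cyp4f genes, Cyp4f14 was 1.50-fold lower (-0.59 ± 0.09 SE on the log2 scale; Benjamini-Hochberg adjusted p from limma = 2.01e-05) and Cyp4f13 1.29-fold lower (-0.36 ± 0.06 SE; adjusted p = 3.93e-05). Cyp4f15 had a log2 change of -0.23 ± 0.10 SE and missed the threshold (adjusted p = 0.0881 by limma and Benjamini-Hochberg). The FXRKO OCA and WT OCA arrays did not overlap for any of the 7 genes, 2 higher and 5 lower, against 18.4% of all genes, 10.9% higher and 7.48% lower. Each gene had the same sign as under vehicle, and these 2 comparisons share no array.

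The 2 OCA groups carried different array numbers, 9 in FXRKO and 5 in WT, so no array number holds both. A fit with the number as a block links them only through the vehicle arrays. In it 1 of the 7 genes was called, against 2334 of all 18820 genes. That gene was Cyp4f15 (log2 change -0.79; limma, Benjamini-Hochberg adjusted p = 0.00521), and without the WT vehicle array of replicate 6 its change in that fit was -0.47 (limma, Benjamini-Hochberg adjusted p = 0.0412). The other 6 kept their direction and lost their call, with limma adjusted p between 0.0506 and 0.266 after Benjamini-Hochberg adjustment. Their log2 changes in that fit were -1.34 for Cyp4a12a, -2.10 for Cyp4a12b, 2.09 for Cyp4a14, 1.22 for Cyp4a31, -0.39 for Cyp4f13 and -0.65 for Cyp4f14. Without the WT vehicle array of replicate 6 as well, that of Cyp4a14 was 1.33.

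OCA itself, the agonist against its vehicle within a genotype, gave no called change in any of the 7 genes. In WT livers 0 of 7 passed the test, against 0.0691% of all genes (13 genes). Cyp4a14 and Cyp4a31 had an unadjusted limma p below 0.05, 2 of 7 genes, against 9.47% of all genes. Cyp4a14 averaged 9.69 ± 1.67 in WT OCA and 11.15 ± 0.60 in WT vehicle livers (SD, n = 6 each), and the groups overlapped. Its log2 change was -1.45, with a 95% confidence interval of -2.41 to -0.49 (limma, Benjamini-Hochberg adjusted p = 0.259; exact permutation test, two-sided, unadjusted p = 0.0563). Cyp4a31 averaged 8.80 ± 0.58 in WT OCA and 9.57 ± 0.56 in WT vehicle livers (SD, n = 6 each), a log2 change of -0.78 with an interval of -1.24 to -0.32 (limma, Benjamini-Hochberg adjusted p = 0.197; exact permutation test, two-sided, unadjusted p = 0.0238). A single liver was lowest in both genes: the WT OCA array of replicate 5, at 6.73 for Cyp4a14 and 7.69 for Cyp4a31. Without it the changes were -0.86 for Cyp4a14 and -0.56 for Cyp4a31. The other 5 genes had log2 changes between -0.23 and -0.01 in WT. The SHP gene Nr0b2, given as the check of the agonist, had a log2 change of 1.41 ± 0.25 in WT (SE; limma, Benjamini-Hochberg adjusted p = 0.0244) and 0.20 ± 0.25 in FXRKO (SE; adjusted p = 0.997).

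In FXRKO livers OCA also gave 0 of 7 called genes, against 0.0159% of all genes (3 genes). Cyp4a12a and Cyp4a12b had an unadjusted limma p below 0.05, 2 of 7 genes, against 5.14% of all genes. These copies may share signal and may not be separate observations. Cyp4a12a averaged 9.55 ± 1.00 in FXRKO OCA and 10.39 ± 0.45 in FXRKO vehicle livers (SD, n = 6 each), a log2 change of -0.85 with a 95% confidence interval of -1.48 to -0.22 (limma, Benjamini-Hochberg adjusted p = 0.871; exact permutation test, two-sided, unadjusted p = 0.0996). Cyp4a12b averaged 9.00 ± 1.01 in FXRKO OCA and 9.82 ± 0.45 in FXRKO vehicle livers (SD, n = 6 each), a log2 change of -0.82 with an interval of -1.45 to -0.19 (limma, Benjamini-Hochberg adjusted p = 0.891; exact permutation test, two-sided, unadjusted p = 0.113). Both intervals use a spread pooled over the 4 groups, and the SD of both genes was largest in FXRKO OCA livers. The livers of 2 FXRKO OCA mice, replicates 4 and 5, were low in both copies, at 8.65 and 7.93 for Cyp4a12a and 7.94 and 7.49 for Cyp4a12b, and the other 4 lay inside the range of the FXRKO vehicle group for Cyp4a12b. Without replicate 5 the change was -0.53 for Cyp4a12a and -0.52 for Cyp4a12b. In those 2 livers the median of 13 male-biased liver genes was 0.27 and 0.31 log2 units below the group mean, and the median of 11 female-biased genes was 0.27 and 0.23 above it. Its part in the Cyp4a12 values was not tested.

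The difference between the OCA effects of the genotypes was not called for any of the 7 genes, nor for any of the 18820 genes (0%) by limma, of which 1140 (6.06%) had an unadjusted p below 0.05. A fit with array weights called 2 genes, and the fit with the array number as a block called 34, none of them among the 7. For Cyp4a14 the difference, FXRKO minus WT, was 1.33 log2 units with a 95% confidence interval of -0.03 to 2.69 (limma, Benjamini-Hochberg adjusted p = 0.833). For Cyp4a12b it was -0.60 with an interval of -1.50 to 0.29 (limma, Benjamini-Hochberg adjusted p = 0.868). These intervals include 0 and also changes of over 1 log2 unit.

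For Cyp4a14 and Cyp4a31 the order of the group means was the same, highest in FXRKO vehicle, then FXRKO OCA, WT vehicle and WT OCA. For Cyp4a12a, Cyp4a12b, Cyp4f14 and Cyp4f15 it was WT vehicle, WT OCA, FXRKO vehicle and FXRKO OCA, from highest to lowest. Cyp4f13 was highest in WT vehicle livers, then WT OCA, FXRKO OCA and FXRKO vehicle. In each of the 7 genes the neighbours of 1 genotype did not differ beyond the test's threshold. For the 6 genes other than Cyp4f13, the middle pair in the order, an FXRKO and a WT group given different treatments, was not tested.

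Along chromosome 4 the members that were lower and those that were higher in FXRKO lie side by side. In RefSeq order the cluster runs Cyp4a12a, Cyp4a12b, Cyp4a14, Cyp4a10, Cyp4a31 and Cyp4a32, with Cyp4a30b, not measured on a probe set of its own, between Cyp4a12b and Cyp4a14. The log2 changes under vehicle along that order were -1.13 for Cyp4a12a, -1.90 for Cyp4a12b, 1.08 for Cyp4a14 (not called) and 0.83 for Cyp4a31. On either side of the cluster, Cyp4x1 had a change of -0.21 (limma, Benjamini-Hochberg adjusted p = 0.0186) and Cyp4b1 of -0.13 (adjusted p = 0.467). On chromosome 17, Cyp4f15, Cyp4f14 and Cyp4f13 are consecutive, all with values below 0. Cyp4f16, which comes before them in RefSeq order with other Cyp4f genes between, was higher in FXRKO, with a log2 change of 0.65 under vehicle (limma, Benjamini-Hochberg adjusted p = 0.000872). The position was given from RefSeq gene order only, since no source used here names the build of the array's annotation.

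**Figure D3:**
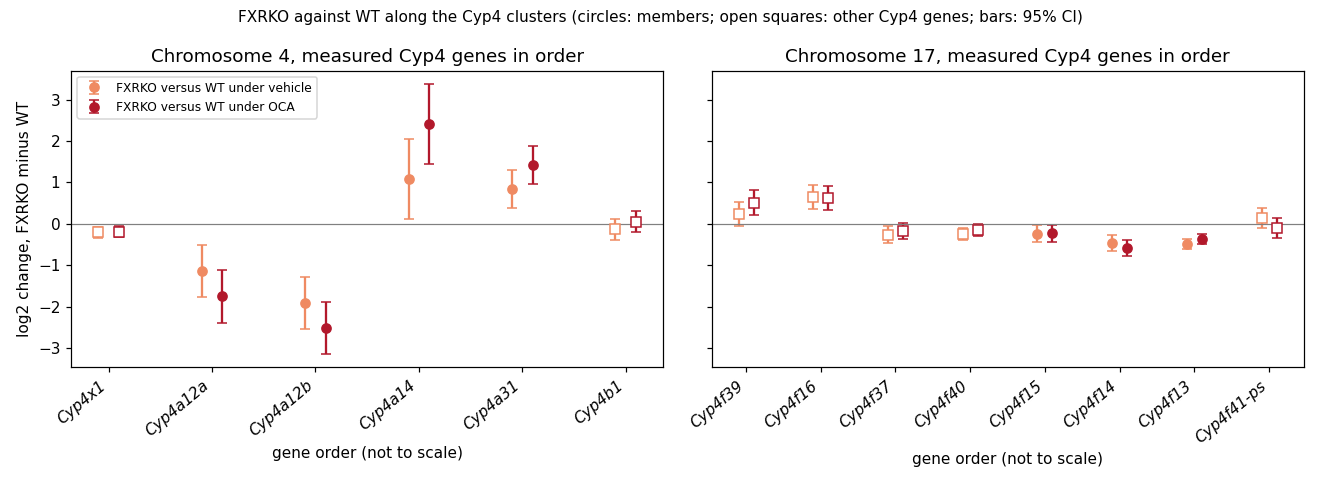
Log2 change of FXRKO against WT livers (vertical axis) for the measured Cyp4 genes in chromosome order, not to scale, with 95% confidence intervals; filled circles are the genes of this account and open squares other Cyp4 genes, orange under vehicle and red under OCA. On chromosome 4 the changes pass from -1.90 at Cyp4a12b to 1.08 at its measured neighbour Cyp4a14 under vehicle.

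Of the 7 measured Cyp4 genes outside the chosen family members, 2 rose and 3 fell in FXRKO under vehicle, with a median log2 change of -0.13. Of all genes, 15.4% rose and 12.1% fell. Cyp4f16 and Cyp4f18 rose, and Cyp4f37, Cyp4f40 and Cyp4x1 fell. Within the arrays numbered 7, 3 rose and 0 fell, and their median was -0.0029 there.

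The probe sets shared between genes cannot be assigned to 1 of them, and were tested over all 35556 probe sets, of which 18.5% were called under vehicle and 21.4% under OCA. The probe set listed for Cyp4a31 and Cyp4a10 averaged 10.94 ± 0.14 in FXRKO OCA, 11.26 ± 0.16 in FXRKO vehicle, 10.02 ± 0.85 in WT OCA and 10.79 ± 0.64 in WT vehicle livers (SD, n = 6 each). It was 0.92 log2 units higher in FXRKO under OCA (limma, Benjamini-Hochberg adjusted p = 0.0285), and its difference of 0.46 under vehicle did not pass (adjusted p = 0.319). The probe set listed for Cyp4a32, Cyp4a31 and Cyp4a10 differed by 0.78 under OCA (limma, Benjamini-Hochberg adjusted p = 0.00961) and by 0.30 under vehicle (adjusted p = 0.383). Both had their lowest value in the WT OCA array of replicate 5, at 8.33 and 9.33. For OCA against vehicle limma called neither of them. In WT their log2 changes were -0.77 and -0.69, in the same order (exact permutation test, two-sided, unadjusted p = 0.0974 and 0.0281). In FXRKO they were -0.32 and -0.20 (exact permutation test, unadjusted p = 0.00866 and 0.0108, against unadjusted limma p of 0.296 and 0.347). The probe set listed for Cyp4v3, the mouse counterpart of the human gene mutated in Bietti crystalline dystrophy, and for Klkb1, plasma prekallikrein, was 0.37 lower in FXRKO under vehicle (limma, Benjamini-Hochberg adjusted p = 9.17e-05) and 0.40 lower under OCA (adjusted p = 2.89e-05).

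Variation within groups was described by the deviations of each gene from its group means over the 24 arrays. Those of Cyp4a12a and Cyp4a12b correlated at r = 0.986. Those of Cyp4a14 and Cyp4a31 correlated at 0.726, and at 0.458 without the WT OCA array of replicate 5, which was lowest in both. Cyp4f14 had r = 0.538 with Cyp4a12b, 0.516 with Cyp4a12a and 0.399 with Cyp4f13. Cyp4a12b and Cyp4a14 had r = -0.10. The close copies may share probe signal, and all arrays share 1 normalization, so these are descriptions. Among all named genes outside the family, the deviations most like those of Cyp4a12b were those of Ces3a (r = 0.887), a liver carboxylesterase, Cyp2c67 (0.878) and Mup20 (0.847), a major urinary protein made by males. The same 3 genes came out for Cyp4a12a, at 0.870, 0.871 and 0.850. Those most like Cyp4a14 were Acadm (0.848), the medium-chain acyl-CoA dehydrogenase of mitochondria, Pnldc1 (0.840) and Tox (0.827). Without the WT OCA array of replicate 5 these were 0.657 for Acadm, 0.551 for Pnldc1 and 0.669 for Tox. For Cyp4a31 they were Acot1 (0.822), a cytosolic acyl-CoA thioesterase, Olfr1383 (0.807) and Uck1 (0.757). For Cyp4f13 the values were lower, with Ooep at 0.741, Lpcat2b at 0.738 and Prxl2c at 0.730, and likewise for Cyp4f14, with Rpusd3 at 0.742, Bst2 at 0.733 and Cyp2c23 at 0.716. The genes most like Cyp4f15, Rdx (0.959), Tbc1d30 (0.935) and Inppl1 (0.931), share with it the WT vehicle array that stands apart, and had r of 0.801, 0.748 and 0.634 in the same order without it.

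**Figure D4:**
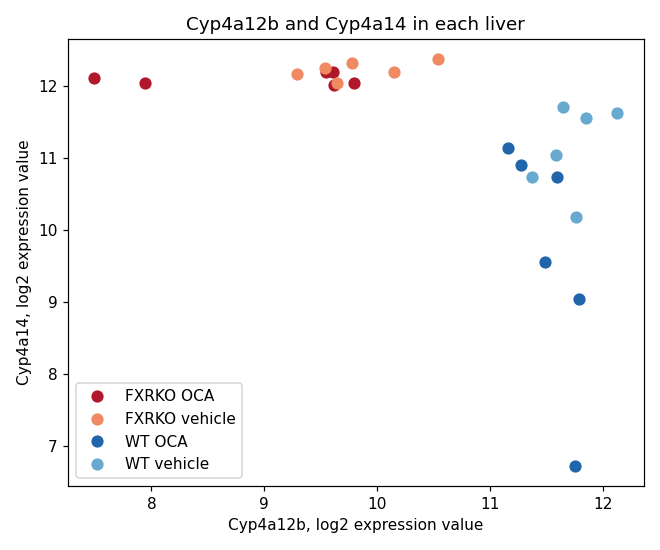
Log2 expression value of Cyp4a14 (vertical axis) against that of Cyp4a12b (horizontal axis) in each of the 24 livers, coloured by group. The FXRKO livers lie at the upper left with Cyp4a14 between 12.02 and 12.38, and the WT livers at the right with Cyp4a12b between 11.16 and 12.13 and Cyp4a14 down to 6.73.

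The genes around the Cyp4 step were also compared between genotypes under vehicle, where 27.5% of all genes were called, 15.4% higher and 12.1% lower. Of 4 listed electron donors of cytochrome P450, 3 were measured, and all 3 rose in FXRKO. Cyb5a, cytochrome b5, led them, with a log2 change of 0.34 ± 0.05 (SE; limma, Benjamini-Hochberg adjusted p = 1.03e-05), before Cyb5b (0.27) and Cyb5r3 (0.20). Por, the cytochrome P450 reductase, was not among these 3 genes, and its level is not given here. Of 15 genes of the later steps of omega oxidation, 6 rose, 3 fell and 6 did not pass the test, with a median of 0.07. Aldh3a2, the fatty aldehyde dehydrogenase, rose by 0.96, Ehhadh, the bifunctional enzyme of peroxisomal oxidation, by 0.64 and Abcd2, a peroxisomal fatty acyl-CoA transporter, by 2.36. Adh4, an alcohol dehydrogenase of liver, averaged 8.27 in FXRKO vehicle and 9.94 in WT vehicle livers and fell by 1.67 (limma, Benjamini-Hochberg adjusted p = 2.82e-11). Of 12 eicosanoid enzymes, 2 rose, 2 fell and 8 did not pass. Ephx1, microsomal epoxide hydrolase, rose by 0.78 and Ptges, a prostaglandin E synthase, by 0.63, while Ephx2, soluble epoxide hydrolase, had a change of -0.36 and Lta4h, which makes leukotriene B4, of -0.29.

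Among 22 PPAR-alpha targets outside the Cyp4 family, 12 rose, 2 fell and 8 did not pass in FXRKO under vehicle, with a median log2 change of 0.30. Of all genes, 15.4% rose and 12.1% fell. Cd36, a fatty acid transporter, averaged 10.55 in FXRKO vehicle and 8.06 in WT vehicle livers, a change of 2.49 ± 0.14 (SE; limma, Benjamini-Hochberg adjusted p = 5.3e-13). Acot2, a mitochondrial thioesterase, rose by 1.92, Vnn1, a pantetheinase, by 1.89 and Pex11a, which divides peroxisomes, by 1.18. The 2 that fell, named after their values were seen, were Cpt1a, the carnitine palmitoyltransferase that controls mitochondrial fatty acid entry (-0.25), and Fabp1, the liver fatty acid binding protein (-0.22). Of 15 regulators, 2 rose, 8 fell and 5 did not pass. Pparg, the adipogenic PPAR, rose by 1.11, while Hnf4a, the hepatocyte nuclear receptor, had a change of -0.52, Ghr, the growth hormone receptor, of -0.39 and Nr0b2 of -2.62. Nr1h4 had a change of -0.17 (limma, Benjamini-Hochberg adjusted p = 0.0935). Ppara, which encodes PPAR-alpha itself and was named after its values were seen, had a change of -0.24 under vehicle (limma, Benjamini-Hochberg adjusted p = 0.137). Under OCA, FXRKO against WT, the change of Ppara was -0.65 (adjusted p = 0.000138).

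Liver genes that differ between the sexes moved on a larger scale in these males. All 13 male-biased genes of the list fell in FXRKO under vehicle, with a median log2 change of -1.88, and 8 of 11 female-biased genes rose while 3 did not pass, with a median of 1.12. These lists were drawn up with results of these arrays known, so their direction is not independent evidence. Elovl3, a fatty acid elongase, averaged 3.40 in FXRKO vehicle and 10.89 in WT vehicle livers, a change of -7.48 ± 0.29 (SE; limma, Benjamini-Hochberg adjusted p = 6.01e-16). Slco1a1, an organic anion uptake transporter, had a change of -6.40, Hsd3b5, a steroid dehydrogenase, of -7.08 and Cyp2d9, a steroid hydroxylase, of -3.01. Cyp2b9 rose by 7.40, Cyp2b13 by 7.25, Cyp17a1 by 2.59 and Fmo2 by 2.09. The changes of Cyp4a12a and Cyp4a12b lay within the wide range of the male-biased genes, -7.48 to -0.37. So did those of Cyp4f13 (-0.49) and Cyp4f14 (-0.46). None of these Cyp4 genes is on that list. The upper end of the range lies near the 5th percentile of all genes, -0.39. The part of these Cyp4 genes in the same shift was not tested.

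**Figure D5:**
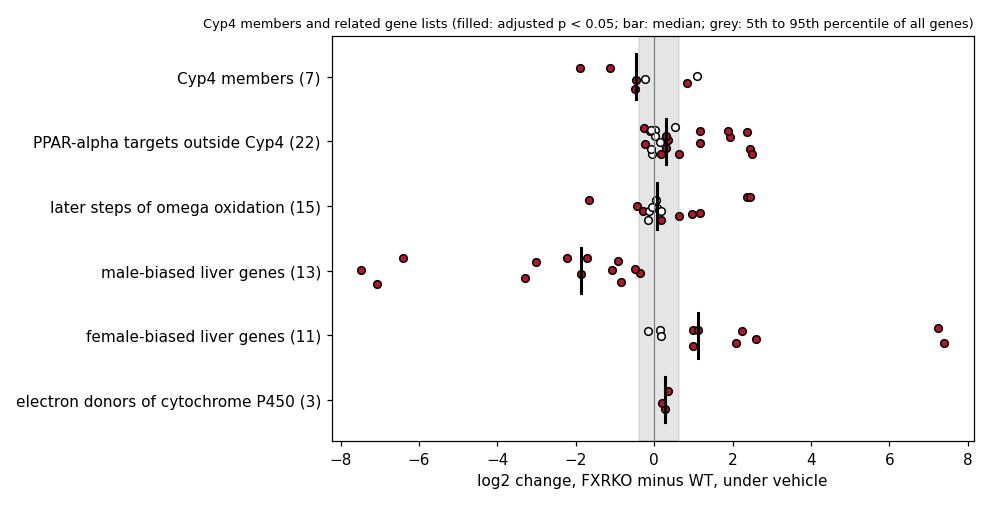
Log2 change of FXRKO against WT livers under vehicle (horizontal axis) for the Cyp4 genes and 5 related gene lists; each point is a gene, filled where the adjusted p is below 0.05, the bar is the list's median and the grey band spans the 5th to 95th percentile of all genes, -0.39 to 0.64. All 13 male-biased genes lie below 0, and the 7 Cyp4 genes fall on both sides of 0.

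Hepatocytes hold most Cyp4 RNA in liver, so markers of hepatocyte zones and of other cells were read in the same arrays. Beside their counts stand the shares of all genes under vehicle, 15.4% higher and 12.1% lower. Of 8 hepatocyte markers, 0 rose and 2 fell in FXRKO under vehicle, with changes between -0.52 and -0.01, and their summed level on the linear scale was 54240 to 57190 in FXRKO vehicle and 58300 to 62820 in WT vehicle livers. Of 8 Kupffer cell markers, 5 rose and 0 fell, with sums of 3531 to 4281 in FXRKO vehicle and 1769 to 3324 in WT vehicle livers. All 6 stellate cell markers rose, with sums of 3498 to 4161 in FXRKO vehicle and 1988 to 2733 in WT vehicle livers. Of 5 cholangiocyte markers 2 rose (sums 160.2 to 204.7 in FXRKO vehicle, 140.1 to 200.1 in WT vehicle), and of 6 sinusoidal endothelial markers 1 fell (1888 to 2521 in FXRKO vehicle, 2264 to 2811 in WT vehicle). None of 5 lymphocyte markers (77.81 to 95.18 in FXRKO vehicle, 85.13 to 104 in WT vehicle) or 3 adipocyte markers (30.16 to 39.29 in FXRKO vehicle, 32.51 to 56.8 in WT vehicle) was called by limma under vehicle, and 1 lymphocyte and 0 adipocyte markers had an unadjusted p below 0.05. Of 8 pericentral hepatocyte genes 3 rose and 2 fell, among them Rhbg, an ammonium transporter, at 1.22, Oat at 0.34, Slc1a2 at -0.68 and Glul, glutamine synthetase, at -0.43. Of 4 periportal genes Hsd17b13 rose, at 0.17, and Hal (-1.53), Pck1 (-1.23) and Cyp2f2 (-0.36) fell. In whole liver, fewer cells of a type and less RNA per cell cannot be told apart, and the part of these markers in the Cyp4 values was not tested.

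For the OCA comparisons, 0 of the 105 genes in these pathway lists were called by limma in FXRKO, where 9 had an unadjusted p below 0.05, and 1, Nr0b2, was called in WT, where 11 did. Over all genes, 5.14% in FXRKO and 9.47% in WT had an unadjusted limma p below 0.05. The PPAR-alpha targets had median log2 changes of -0.07 in FXRKO and -0.11 in WT for OCA against vehicle, with 0 of 22 called in each and 2 in FXRKO and 6 in WT at an unadjusted limma p below 0.05. Under OCA, the genotype comparison gave 12 PPAR-alpha targets that rose and 3 that fell, 13 of 13 male-biased genes that fell and 9 of 11 female-biased genes that rose. Of all genes, 17.4% rose and 13.3% fell there. With the array number as a block, 4 PPAR-alpha targets rose and 1 fell, 10 male-biased genes fell and 6 female-biased genes rose under OCA.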

How the data were processed

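The deposited series matrix held 1 log2 value per probe set and array for 35556 probe sets, made with RMA (version not given) per the submitters' processing notes; that the deposited values are log2 was inferred from their range, 0.873 to 13.6. Of the probe sets, 21218 carried 1 gene symbol, 1881 several and 12457 were not listed; symbols were updated by gene number for 21185. For each gene the probe set with the highest mean was kept, leaving 18820 genes. Arrays have no sequencing depth; the 6 arrays per group limit the precision. With limma 3.58.1 in R 4.3.3, 1 mean per group was estimated for the 4 groups (20 residual and 4.46 prior degrees of freedom), and 5 contrasts were tested with Benjamini-Hochberg adjustment over all genes and calls at 0.05. Exact two-sided permutation tests over 924 divisions of 12 arrays, and correlations without each array in turn, were added after seeing the data. The fit was tested on simulated data.

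Members and gene lists were chosen with earlier results of these data known. Genes named besides the members were Nr1h4, Nr0b2, up to 4 genes per list with the smallest p under vehicle and the 3 genes most like each member, except where stated. Replicate numbers did not pair animals: same-numbered arrays correlated at -0.0544 to 0.17. Alternatives were centring, quantile normalization, a filter on dim genes, another variance model, array weights, fewer groups, array number or letter blocks, 1 array number alone, arrays whose names end in _2 left out, a replicate block, all probe sets, mean probe sets and leaving out each array.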

Additional observations from a re-analysis of the deposited data

Results flagged for a closer look

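In 4 of 40 groups of 6 arrays, 1 array lay far from the others, its gap to the nearest array being a larger share of the group's range than Dixon's critical value; chance gives about 1 such group in 20. In WT OCA livers, replicate 5 was at 7.688 for Cyp4a31, with the others between 8.81 and 9.386. The same liver was at 8.329 on the probe set shared by Cyp4a31 and Cyp4a10, with the others between 10.16 and 10.66, and at 9.334 on the probe set shared by Cyp4a32, Cyp4a31 and Cyp4a10, with the others between 10.56 and 11.09. These 3 probe sets list genes in common and are not separate observations. In WT vehicle livers, replicate 6 was at 9.871 for Cyp4f15, with the others between 10.51 and 10.77.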

How the results depend on the processing

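Over 973 alternative values for single genes, 907 kept direction and side of the threshold, 17 lost a call, 13 gained one and 36 changed sign. All 17 lost calls were genotype comparisons in fits with the array number as a block or with number 7 alone. The total of 973 also counts the OCA comparisons and the difference of the OCA effects, which had no call to lose. Of the 7 genes, 4 to 7 were called for FXRKO versus WT under vehicle and 6 to 7 under OCA, except that 1 was called under OCA with the array number as a block, with or without the WT vehicle array of replicate 6; this block leaves the OCA groups linked only through vehicle arrays. OCA within either genotype, and the difference of the OCA effects, gave 0 throughout. Leaving out each array gave 5 to 6 called genes under vehicle, 6 to 6 under OCA and 0 to 0 elsewhere. The sign changes were in uncalled values of Cyp4f14 and Cyp4f15. For Cyp4f14 and OCA in WT the value was 0.0020 with quantile normalization and 0.015 with the array letter as a block. For Cyp4f15 and OCA in WT it was 0.0016 with quantile normalization and 0.31 with the number block or number 5 alone. For Cyp4f15 and OCA in FXRKO it was 0.0043 with quantile normalization and 0.0042 with array weights. The difference of OCA effects for Cyp4f15 was -0.37 with the number block and -0.050 without the WT vehicle array of replicate 6 as well. Leaving out arrays moved Cyp4f14 for OCA in WT over -0.034 to 0.027, and Cyp4f15 over -0.13 to 0.046 for OCA in WT, -0.022 to 0.017 for OCA in FXRKO and -0.047 to 0.13 for the difference; the cause was not tested. With a replicate block, 5 genes were called under vehicle, 6 under OCA and 0 for the rest; replicate numbers did not pair the animals, with 0 to 2 of 6 pairs correlating over 0.1. Over all genes, the count under OCA, 5780, was 2334 with the number block, 1834 with that block and without the WT vehicle array of replicate 6, and 3857 without arrays whose names end in _2. For OCA in WT the 13 genes called became 667 with the number block and 77 with that block and without that array, and 2 to 22 with the other alternatives; for OCA in FXRKO 0 to 11 genes were called against 3, and for the difference 0 to 34 against 0. The number of arrays, the probe sets shared between copies and the unknown meaning of the array number limit these values.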
